A study of Drosophila melanogaster with 30 samples.

Results

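Aminoacyl-tRNA synthetases are the enzymes that attach each amino acid to its transfer RNA, and so supply the ribosome with charged tRNA. Animal cells hold a cytosolic set and a mitochondrial set, both encoded in the nucleus, and the enzymes fall into class I and class II by the fold of their catalytic domain. In animals several cytosolic synthetases sit together in a multi-synthetase complex held by scaffold proteins (the AIMPs), and uncharged tRNA is a signal of amino acid shortage read by the kinase Gcn2. Expression of this gene family was followed in the fly brain. Members were the genes whose symbol is a 3-letter amino acid name followed by RS or RS-m, plus GluProRS, a fused enzyme for glutamate and proline, taken from probe sets with 1 gene symbol. The rule used names and no measured value to pick genes, and took the brightest probe set of each. It gave 30 genes of the 10844 genes with such a probe set, 16 cytosolic and 14 mitochondrial (symbols ending in -m). By the same rule the RefSeq gene table held 33 genes, and AspRS, MetRS and AlaRS-m are not analysed here.

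The study profiled dissected brains of 5-day-old virgin females of the wild-type strain Canton-S on Affymetrix Drosophila Genome 1.0 arrays. Each array held RNA of 139 to 193 pooled brains, and each of the 10 groups had 3 arrays. In a deprivation experiment of 21 arrays, flies were kept awake by manual stimulation for 2, 4 or 6 h from ZT14 (hours after lights-on; the start of consolidated sleep), beside undisturbed sleeping flies of the same hours and a group killed at ZT14. In an active period experiment of 9 arrays, the same handling was given between ZT10 and ZT14, in the waking part of the day, beside undisturbed wake flies of ZT14 and a group killed at ZT10. All groups shared the strain, sex, age, 12 h of light and 25 °C, and none carried an added allele or drug.

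Levels are RMA values, log2 units of array signal, and a difference of 1 is a doubling. The median signal was 4.88 to 4.96 in every array, and replicate arrays correlated at 0.974 to 0.997 over all probe sets. The brain RNA carried neuronal markers (nSyb and brp lay at the 94.1 and 87.3 percentile of probe set signal), and no marker value is 0 on this scale. It also carried markers of photoreceptors, fat body and antenna, such as Arr2 (97.8 percentile) and Obp19d (96.2 percentile). These examples are among the brightest of their lists. The neuron marker para lay at the 48.7 percentile, and the antennal markers Orco and lush at the 29.7 and 15.4 percentile. In the pooled tissue, fewer cells of a type and less RNA per cell cannot be told apart. Deprived 2 h replicate 2 stood apart: its summed level of 5 neuron markers was 7.65, the lowest of the 30 arrays, against 8.45 in the next lowest, deprived 6 h replicate 3. Sleeping 6 h replicate 1 has conflicting labels: the source name reads deprived, against sleeping in the other fields, including the title, and it was kept as sleeping. The members' counts and medians and the calls on LysRS, GlyRS and AsnRS are given with and without these arrays below.

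The first comparison set deprived against sleeping brains of the same hour, as the mean of the differences at 2, 4 and 6 h. A pair of genes was lower in deprived brains, LysRS and GlyRS, which charge lysine and glycine tRNAs, and no member was higher. This was 2 of 30 members, where 0.437% of all probe sets were called lower and 0.487% higher (limma, adjusted p below 0.05 over 13966 probe sets). The other 28 members did not pass. Of the estimates 27 of 30 were below 0, where 45.8% of all probe sets were, and the median of the members was -0.0614 log2 units against 0.0095 for all probe sets and -0.0176 for probe sets above the median signal. The count below 0 was 28 without deprived 2 h replicate 2 (median -0.05), 27 without sleeping 6 h replicate 1 (median -0.06), and 20 with arrays blocked by hybridisation date and time, called a run here (median -0.07). Within the 2 chip lots that held both conditions it was 24 and 22 of 30 (medians -0.07 and -0.04). The run that held both conditions at 4 h (1 deprived and 2 sleeping arrays) gave 14 of 30 (median 0.019). The plot of the 30 differences gives each with its standard error.

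**Figure D1:**
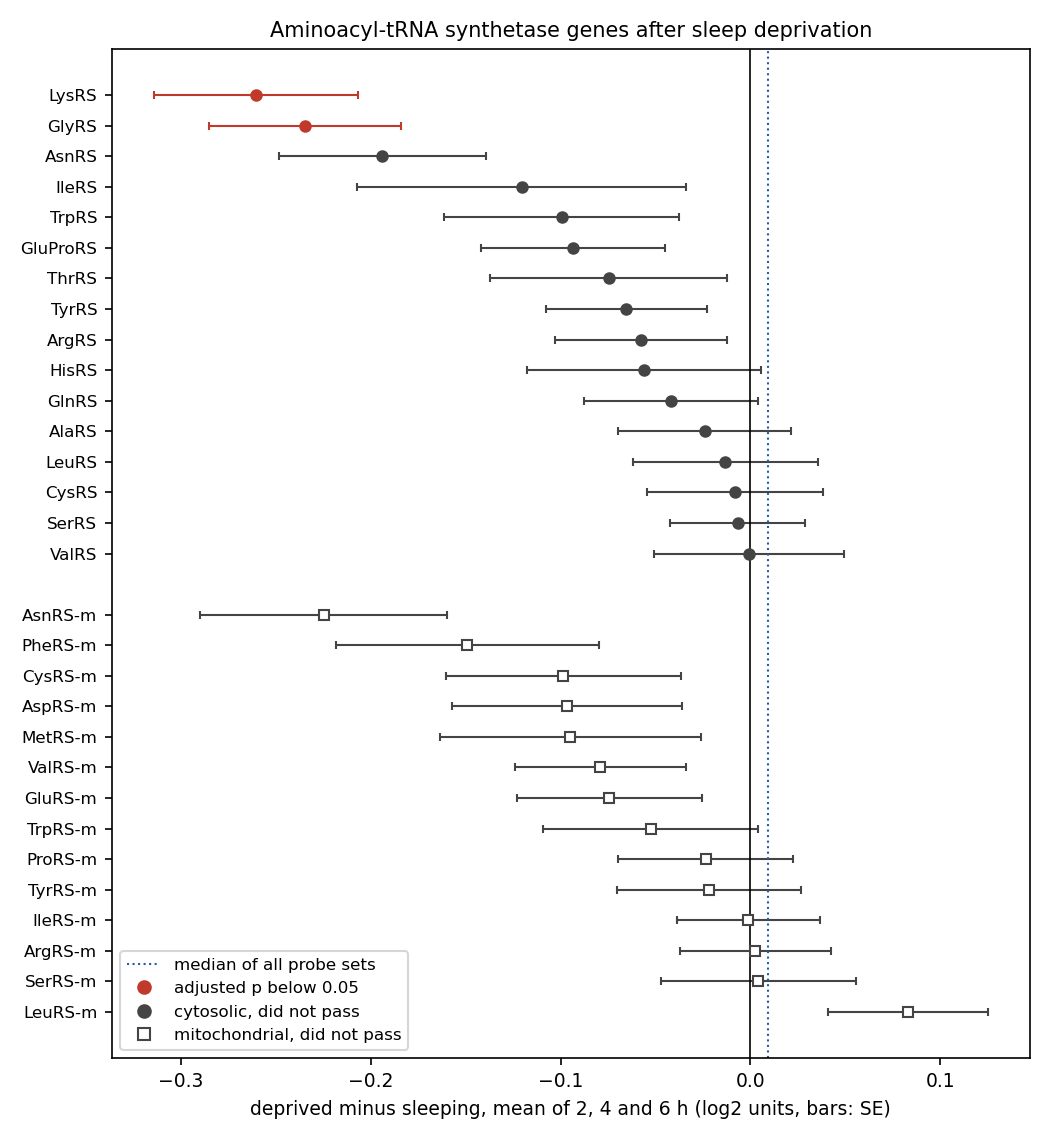
Deprived minus sleeping difference of each synthetase gene (x axis, log2 units, mean over 2, 4 and 6 h, bars are standard errors of the limma fit) for 16 cytosolic genes (top, circles) and 14 mitochondrial genes (bottom, squares). LysRS (-0.26) and GlyRS (-0.23), in red, are the members past an adjusted p of 0.05; 27 of 30 points lie left of 0, and LeuRS-m (0.08) lies farthest to the right.

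LysRS is a class II enzyme and a member of the multi-synthetase complex. In sleeping brains it measured 6.41, 6.32 and 6.53 at 2 h, 6.20, 6.17 and 6.46 at 4 h, and 6.28, 6.14 and 6.15 at 6 h. In deprived brains it measured 6.06, 6.18 and 5.92 at 2 h, 5.98, 6.18 and 6.14 at 4 h, and 5.83, 5.96 and 6.08 at 6 h. All deprived arrays were below all sleeping arrays at 2 h and at 6 h, while the groups overlapped at 4 h. The mean difference was -0.26 ± 0.0539 (SE; 16.5% lower signal; limma adjusted p = 0.0218), and 9 of 9 deprived arrays lay below the mean of the sleeping arrays of their hour. At ZT14, before either treatment, the arrays measured 6.33, 6.39 and 6.29, within the range of the sleeping groups and above every deprived array. Undisturbed wake flies of ZT14 in the active period experiment measured 6.15, 5.98 and 6.10, below that start group and within the range of the deprived arrays. No joint normalisation of the experiments is stated, and the difference between the ZT14 groups was not tested.

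GlyRS, also class II and outside that complex, charges glycine tRNAs; in human cells the cytosolic and mitochondrial forms of GlyRS and of LysRS each come from 1 gene. In sleeping brains it measured 6.85, 6.90 and 6.99 at 2 h, 6.75, 6.68 and 6.99 at 4 h, and 7.07, 6.84 and 6.85 at 6 h. In deprived brains it measured 6.50, 6.66 and 6.75 at 2 h, 6.68, 6.67 and 6.66 at 4 h, and 6.66, 6.63 and 6.59 at 6 h. The groups did not overlap at any of the 3 hours, although at 4 h the lowest sleeping and the highest deprived array were alike to 2 decimals. The mean difference was -0.23 ± 0.0506 (15.0% lower signal; limma adjusted p = 0.0285; 9 of 9 deprived arrays). At ZT14 GlyRS measured 6.74, 6.87 and 6.71, overlapping both groups of 2 h.

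**Figure D2:**
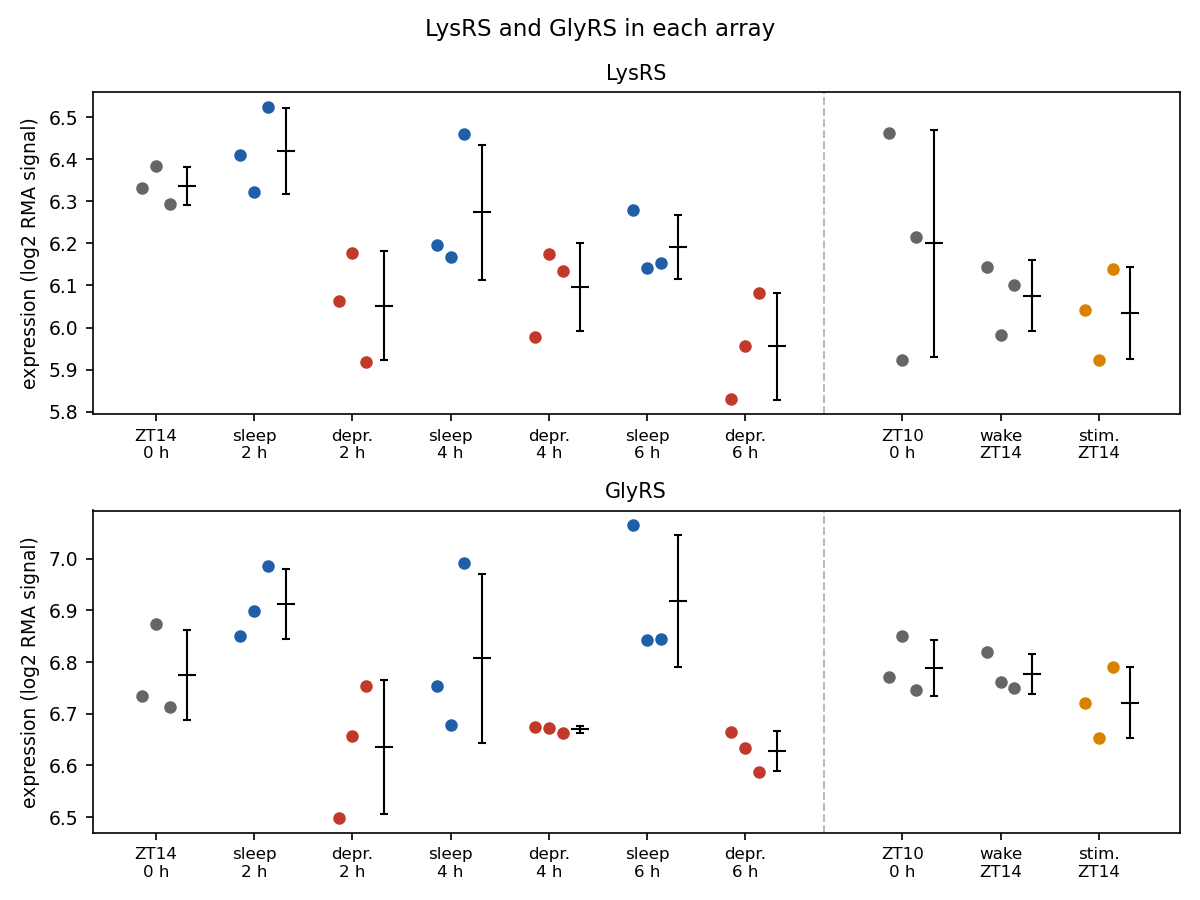
Expression of LysRS (top) and GlyRS (bottom) in each of the 30 arrays (y axis, log2 RMA signal); 1 point per array, the black tick and bar are the mean and SD of the 3 arrays of a group, and the dashed line parts the deprivation experiment from the active period experiment. Deprived arrays (red) lie below sleeping arrays (blue) of the same hour apart from the overlap of LysRS at 4 h, and stimulated arrays (orange) overlap wake arrays.

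The calls on both genes were close to the threshold. Without deprived 2 h replicate 2, the array with the low neuron markers, LysRS was -0.28 (adjusted p = 0.0122) and GlyRS -0.24 (adjusted p = 0.0324). Without sleeping 6 h replicate 1, whose labels conflict, LysRS was -0.25 (adjusted p = 0.0584) and GlyRS -0.21 (adjusted p = 0.0711), and neither passed. With run as a block, LysRS was -0.29 (adjusted p = 0.0845) and GlyRS -0.27 (adjusted p = 0.0980), again without a call. No run held both conditions at 2 or at 6 h, so there run and treatment cannot be told apart. In the run that held both at 4 h (1 deprived and 2 sleeping arrays) LysRS differed by -0.34 and GlyRS by -0.16. Within the chip lot with 4 deprived and 3 sleeping arrays LysRS differed by -0.44 and GlyRS by -0.27, and within the lot with 5 of each by -0.16 and -0.21. The omission of deprived 4 h replicate 1 or sleeping 2 h replicate 3 also ended both calls (adjusted p = 0.0517 and 0.0522, and 0.0579 and 0.0704, for LysRS and GlyRS). That of deprived 6 h replicate 1 ended the call on LysRS alone (adjusted p = 0.0523). GlyRS alone lost its call without sleeping 4 h replicate 1 (0.0517) or 3 (0.0604), deprived 4 h replicate 3 (0.0615), or deprived 6 h replicate 2 (0.0543) or 3 (0.0631).

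Marker genes of cell types were read beside these results. All 5 neuron markers were below 0 in the same comparison (median -0.48; elav -0.50, adjusted p = 0.127; none passed), and their summed level ran from 7.65 to 9.13 in deprived and from 8.88 to 9.28 in sleeping arrays. The 3 photoreceptor markers had a median of -0.45 (summed level 8.99 to 9.96 deprived, 8.92 to 10.6 sleeping) and the 5 antennal markers a median of 0.31 (8.58 to 9.93 against 8.35 to 9.84), with none passing. The medians of the glial, fat body, haemocyte and muscle markers lay between -0.11 and 0.08 in this mean over the hours. At 6 h alone the summed levels of neuron markers did not overlap (8.45 to 8.81 deprived, 8.88 to 9.28 sleeping). Nor did those of glial (10.95 to 11.21 against 11.25 to 11.49) and antennal markers (9.5 to 9.58 against 8.5 to 8.87). At 2 h those of photoreceptor markers did not (9.03 to 9.79 against 10.12 to 10.31). The other sets overlapped or met at these hours, and no marker passed at either. The part of these markers in the synthetase differences was not tested.

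The next 3 members by p were AsnRS, AsnRS-m and PheRS-m, and none passed. AsnRS, the cytosolic enzyme for asparagine, measured 6.29, 6.33 and 6.29 in sleeping and 5.85, 6.28 and 6.01 in deprived brains at 2 h. At 4 h it measured 6.07, 6.16 and 6.35 against 6.17, 6.22 and 6.23, and at 6 h 6.28, 6.28 and 6.34 against 5.87, 6.02 and 6.02. The deprived arrays lay below the sleeping arrays at 2 and 6 h and among them at 4 h. The mean difference was -0.19 ± 0.0545 (limma adjusted p = 0.116). Its highest deprived array at 2 h was replicate 2, and without that array the difference was -0.23 (adjusted p = 0.0199), past the threshold. With a covariate for RNA quality, the control signal at the 3' end minus that at the 5' end, it was -0.26 (adjusted p = 0.0275). AsnRS passed in 2 of 14 alternatives, this covariate included. Among 18 omissions of an array it passed in 1, that of replicate 2 (limma adjusted p from 0.0199 to 0.226). It did not pass without sleeping 6 h replicate 1.

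AsnRS-m, the mitochondrial counterpart, measured 4.41, 4.22 and 4.41 in sleeping against 3.97, 4.25 and 4.19 in deprived brains at 2 h. The values were 4.19, 4.19 and 4.37 against 3.92, 4.23 and 4.16 at 4 h, and 4.22, 4.67 and 4.18 against 3.99, 4.09 and 4.05 at 6 h. Only at 6 h did the groups not overlap. The mean difference was -0.22 ± 0.0649 (limma adjusted p = 0.126; 9 of 9 deprived arrays below the sleeping mean). The probe set of AsnRS-m was among the dimmer ones (35.9 percentile of signal).

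**Figure D3:**
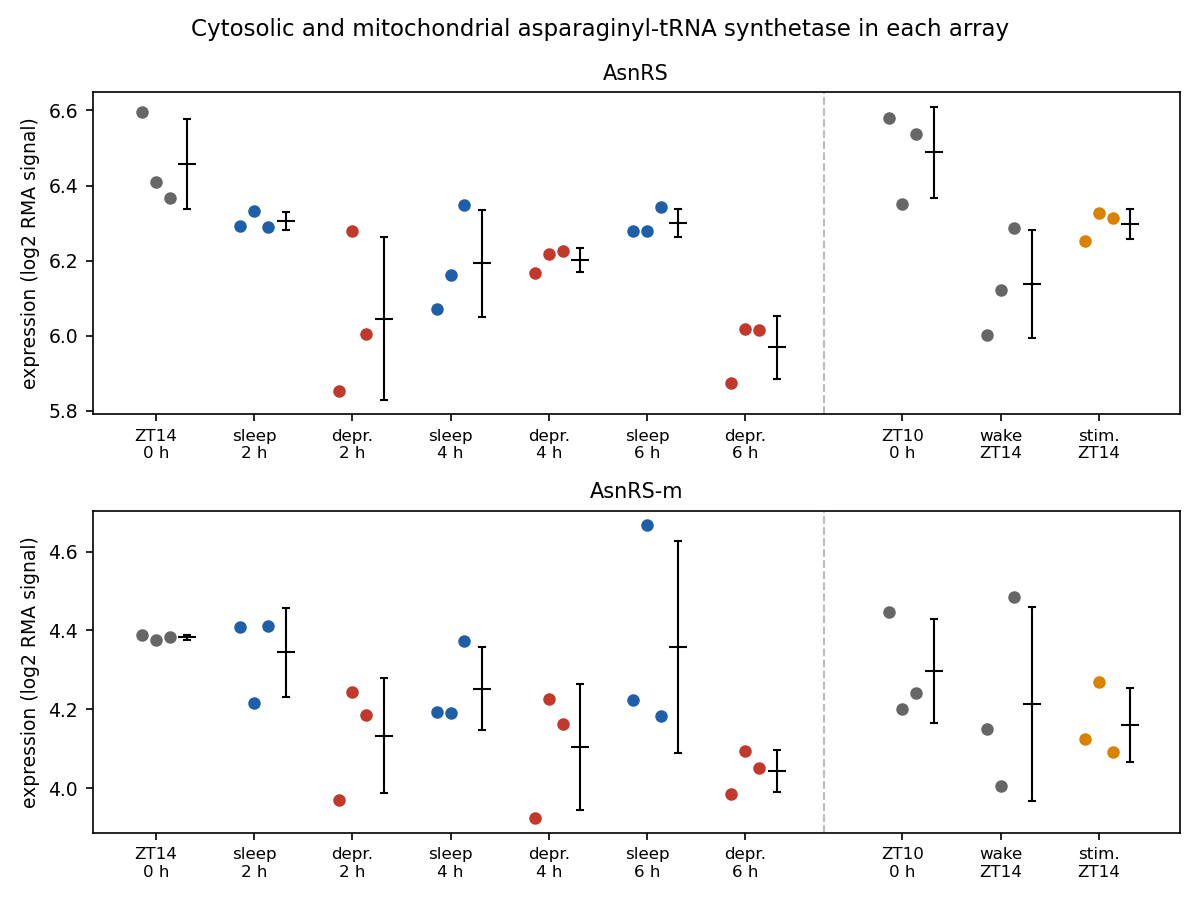
Expression of AsnRS (top) and AsnRS-m (bottom) in each of the 30 arrays (y axis, log2 RMA signal); 1 point per array, black ticks and bars are group means and SDs. AsnRS is lower in deprived (red) than in sleeping (blue) arrays at 2 and 6 h but not at 4 h, and in wake than in ZT10 arrays; none of these differences passed the adjusted threshold.

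PheRS-m, the mitochondrial phenylalanine enzyme, measured 7.46, 7.18 and 7.50 in sleeping against 7.05, 7.19 and 7.25 in deprived brains at 2 h. At 4 h the values were 7.25, 7.13 and 7.52 against 7.14, 7.53 and 7.40, and at 6 h 7.56, 7.38 and 7.34 against 7.20, 7.09 and 7.12. The groups overlapped at 2 and 4 h and not at 6 h, and the mean difference was -0.15 ± 0.0693 (limma adjusted p = 0.337). Its cytosolic counterpart has subunits outside the symbol rule, alpha-PheRS and beta-PheRS, with -0.09 (adjusted p = 0.344) and -0.06 (adjusted p = 0.523).

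All 16 cytosolic genes had a mean difference below 0 (median -0.0614) and 11 of 14 mitochondrial genes did (median -0.0634), the exceptions being LeuRS-m (0.08), SerRS-m and ArgRS-m (both 0.00). At 2 h 14 of 16 cytosolic genes (median -0.0993) and 7 of 14 mitochondrial genes (median -0.0104) were below 0, at 4 h 6 (median 0.0196) and 9 (median -0.0371), and at 6 h 15 (median -0.1511) and 12 (median -0.0737). Both called genes are counted as cytosolic by their symbols. The RefSeq table held no LysRS-m or GlyRS-m, so any mitochondrial form made from these genes is counted with them. The difference between the compartments was not tested. By class, the 12 class II genes had a median of -0.0856 and the 17 class I genes one of -0.0525, with GluProRS, which joins a class I and a class II enzyme, at -0.09. The 5 members with an unadjusted p below 0.05 (16.67% of members, where 7.82% of all probe sets were lower at that level) were LysRS, GlyRS, AsnRS, AsnRS-m and PheRS-m, all of class II. At 6 h alone, 4 of 17 class I and 5 of 12 class II genes were lower at an unadjusted limma p below 0.05 (8.55% of all probe sets). Class II genes lay mostly above the median signal of all probe sets, and class I genes mostly below it. The difference between the classes was not tested, and class was not separated from signal. The 6 members that sit in the multi-synthetase complex of animals (LysRS, ArgRS, GlnRS, IleRS, LeuRS and GluProRS) had a median of -0.0754, and the 10 other cytosolic genes -0.0606.

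Signal strength went along with the size of the difference. The 17 members above the median signal of all probe sets had a median difference of -0.0747, and the 13 at or below it -0.0216; over the 30 genes, which share the same arrays, the Spearman correlation of mean signal with the difference was -0.44. RMA compresses differences of dim probe sets, and 7 members lay below the 25th percentile, ArgRS-m lowest at 0.592. LeuRS, MetRS-m, SerRS and TyrRS each had a further, dimmer probe set. These gave mean differences of -0.02, -0.06, 0.00 and -0.06, against -0.01, -0.09, -0.01 and -0.07 for the probe sets used.

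By hour, most estimates were below 0 at 2 and 6 h, and as many lay above as below 0 at 4 h. At 2 h 21 of 30 were below 0 (44.8% of all probe sets; median -0.0442, all probe sets 0.0167). The median at 2 h was farther from 0 without deprived replicate 2 (21 below 0, median -0.086) or sleeping replicate 2 (23, -0.092) and nearer to 0 without sleeping replicate 1 (21, -0.021), while 16 were below 0 without deprived replicate 1 (median -0.039). At 4 h 15 were (56.7% of all; median 0.0012, all -0.0185). At 6 h 27 were (46.1% of all; median -0.0991, all 0.0183, probe sets above the median signal -0.0481), and 25 were without sleeping replicate 1 (median -0.111), 25 with run as a block (median -0.156). No member passed at a single hour, where 0.00716%, 0.0143% and 0.0931% of all probe sets were called in either direction. At an unadjusted p below 0.05, 3 members were lower at 2 h (3.98% of all probe sets), none was lower at 4 h (1.96%) and 9 were lower at 6 h (8.55%), while LeuRS-m alone was higher, at 4 h (0.16; 2.41% of all). All 3 deprived arrays lay below all 3 sleeping arrays for 6 members at 2 h (4.86% of all probe sets), for GlyRS alone at 4 h (6.52%), and for 12 at 6 h (13.4%). They lay above all 3 sleeping arrays for 0 members at 2 h (7.15% of all probe sets), for LeuRS-m and SerRS-m, 2 members, at 4 h (3.44%), and for 1, SerRS-m, at 6 h (15.4%). The F test over the 3 hours called no member (0.222% of all probe sets), nor did the study's Fs test. An unadjusted p below 0.05 was found for 5 members, all with a mean below 0 (5.51% of all probe sets): LysRS, GlyRS, AsnRS, AsnRS-m and ThrRS. A test of whether the difference changed between 2 and 6 h called none either (0.00716%; 1 lower at an unadjusted p below 0.05, CysRS-m, where 1.9% of all probe sets were), the largest estimates being -0.33 for CysRS-m and 0.24 for SerRS-m. The contrast of 4 h with the other hours was not tested.

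**Figure D4:**
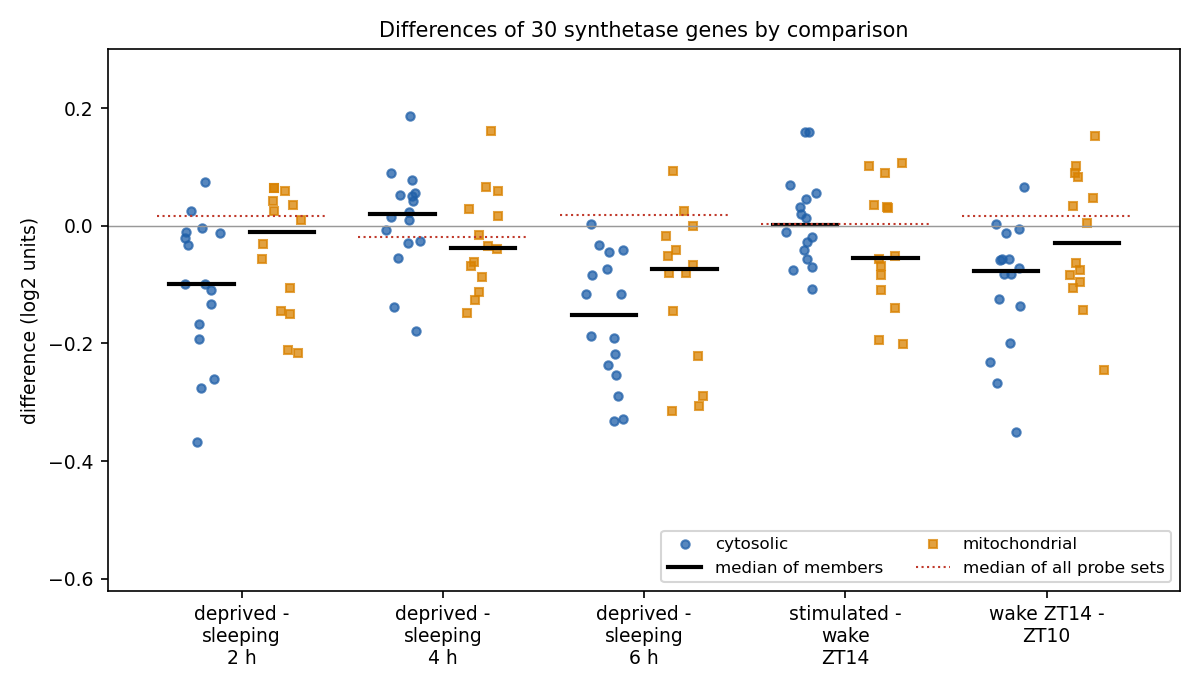
Differences of the 30 synthetase genes (y axis, log2 units) in 5 comparisons (x axis); blue circles are cytosolic and orange squares mitochondrial genes, black lines their medians, and red dotted lines the median of all probe sets. Cytosolic genes lie mostly below 0 at 2 h, 6 h and from ZT10 to ZT14 in wake flies, and around 0 at 4 h and after stimulation.

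At 6 h the single largest differences were in AsnRS (-0.33), IleRS (-0.33), AsnRS-m (-0.32) and CysRS-m (-0.31), with LysRS at -0.24 and GlyRS at -0.29 (limma adjusted p = 0.133, 0.262, 0.196, 0.191, 0.217 and 0.145). TrpRS, the tryptophan enzyme, measured 4.95, 4.98 and 5.01 in sleeping and 4.68, 4.75 and 4.74 in deprived brains at that hour. The groups did not overlap, and the difference was -0.25 ± 0.107 (limma adjusted p = 0.234). ArgRS, the arginine enzyme, measured 5.25, 5.31 and 5.23 against 5.16, 5.18 and 4.88, again without overlap, at -0.19.

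The course from ZT14 used the ZT14 group as the start of both series, so the sleeping and deprived trends share those 3 arrays. In sleeping flies 14 of 30 slopes were below 0 (46.3% of all probe sets), with a median change over 6 h of 0.0018 (all probe sets 0.0101), and 14 without sleeping 6 h replicate 1 (median 0.011). No member passed in limma (0.107% of all probe sets), and LeuRS-m alone was lower at an unadjusted p below 0.05 (-0.17; 3.97% of all). In deprived flies 26 of 30 slopes were below 0, where 45.9% of all probe sets were, with a median of -0.091 (all 0.0175, bright probe sets -0.0557), and 24 without deprived 2 h replicate 2 (median -0.098). No member passed in that course either (0.294% of all probe sets), and AsnRS, LysRS, AsnRS-m and PheRS-m, 4 members, were lower at an unadjusted p below 0.05 (7.64% of all). The steepest were AsnRS at -0.39 ± 0.0896 over 6 h (limma adjusted p = 0.0748) and LysRS at -0.33 ± 0.0885 (adjusted p = 0.133), against -0.17 for each in sleeping flies. AsnRS had started at 6.60, 6.41 and 6.37 at ZT14, above every deprived and sleeping array of the later hours. In the other experiment the undisturbed wake flies of ZT14 measured 6.00, 6.12 and 6.29, below that start group. The count of members past the threshold in the deprived course was 1, AsnRS, without deprived 2 h replicate 1 or without deprived 2 h replicate 2. GlyRS had a slope of -0.12 in deprived and 0.10 in sleeping flies, neither past the threshold.

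The active period experiment was the study's control for the handling, in flies that are awake anyway. No member passed between stimulated and wake flies at ZT14 in limma (0.0859% of all probe sets were called), and 2, TrpRS-m and MetRS-m, were lower at an unadjusted p below 0.05 (2.99% of all). MetRS-m differed by -0.19 in the probe set used but by 0.08, in the other direction, in its dimmer probe set. Of the estimates 16 of 30 were below 0 (48.8% of all probe sets), with a median of -0.0143 (all 0.0030). In this comparison the 5 antennal markers were all above 0 (median 0.633, summed level 9.3 to 10 stimulated, 8.91 to 9.13 wake). So were the 3 photoreceptor markers (median 0.344, summed level 8.96 to 9.7 against 8.84 to 9.25). Medians of the other marker sets lay between -0.165 and 0.086, and no marker passed. The part of these markers in the synthetase differences was not tested. LysRS measured 6.04, 5.92 and 6.14 in stimulated and 6.15, 5.98 and 6.10 in wake brains, a difference of -0.04 ± 0.114. GlyRS measured 6.72, 6.65 and 6.79 against 6.82, 6.76 and 6.75, a difference of -0.06 ± 0.0734. The groups overlapped for both. Set against the 4 h deprivation effect in a fit of all 30 arrays, the deprivation minus the stimulation effect was -0.14 ± 0.151 for LysRS and -0.08 ± 0.112 for GlyRS (limma adjusted p = 1.00 for both). Both standard errors exceeded the size of the estimate. No probe set passed that test (0%), and LeuRS-m alone of the members was higher at an unadjusted p below 0.05 (0.22; 0.43% of all).

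The largest rise after stimulation was in AsnRS, which measured 6.25, 6.33 and 6.31 against 6.00, 6.12 and 6.29 in wake flies. The groups overlapped, and the difference was 0.16 ± 0.0892 (limma adjusted p = 0.745). IleRS was nearly as high at 0.16 (adjusted p = 0.709). The largest fall was in TrpRS-m, the mitochondrial tryptophan enzyme, which measured 4.58, 4.67 and 4.63 against 4.75, 4.87 and 4.86, without overlap but short of the threshold at -0.20 ± 0.0734 (adjusted p = 0.623). TrpRS, its cytosolic counterpart, measured 4.49, 4.67 and 4.53 against 4.32, 4.63 and 4.68, a difference of 0.02.

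Over the 4 h from ZT10 to ZT14 in undisturbed wake flies no member passed (0.0644% of all probe sets were called, all lower), while 21 of 30 estimates were below 0 (44.9% of all probe sets), with a median of -0.0669 against 0.0165 for all. Without ZT10 replicate 1 it was 20, with a median of -0.04. In the same comparison all 3 photoreceptor markers were below 0 (median -0.739; summed level 8.84 to 9.25 at ZT14, 9.72 to 9.99 at ZT10) and all 6 fat body markers above 0 (median 0.544; 12.74 to 13.89 against 12.19 to 13), with none passing, and the 5 neuron markers had a median of -0.04. The part of these markers in the synthetase differences was not tested. At an unadjusted p below 0.05, 5 were lower (6.42% of all) and ArgRS-m alone was higher (4.97%). AsnRS fell short of the threshold with the largest difference: it measured 6.00, 6.12 and 6.29 at ZT14 and 6.58, 6.35 and 6.54 at ZT10. These groups did not overlap, and the difference was -0.35 ± 0.0892 (limma adjusted p = 0.182). IleRS (-0.27, adjusted p = 0.247) and TrpRS (-0.23, adjusted p = 0.394) also lay below ZT10 in all 3 arrays, 3 members in all, where 7.48% of all probe sets did so. LysRS, at 6.46, 5.92 and 6.22 at ZT10, spread widely there and differed by -0.12 ± 0.114. GlyRS, at 6.77, 6.85 and 6.75, differed by -0.01 ± 0.0734. The largest difference upward was in ArgRS-m, the dimmest member, at 2.22, 2.18 and 2.26 against 2.09, 2.01 and 2.09, or 0.15 ± 0.0704 (adjusted p = 0.428). ArgRS, its cytosolic counterpart, measured 4.93, 5.00 and 5.22 against 5.13, 5.14 and 5.28.

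Partners of tRNA charging were taken from a separate list of 13 measured genes. It held scaffold proteins, subunits of the phenylalanine enzyme, amidotransferase subunits, a deacylase and elongation factor subunits, some of which carry charged tRNA. In the mean of 2, 4 and 6 h 1 of the 13 was lower and none higher, where 0.437% of all probe sets were called lower and 0.487% higher. The gene was mEFTu1, a mitochondrial elongation factor that brings charged tRNA to the ribosome, at -0.31 ± 0.0613 (limma adjusted p = 0.0187). Its difference at 6 h was -0.52 (adjusted p = 0.0579), and its course in deprived flies fell by 0.50 over 6 h (adjusted p = 0.0378). The related gene mEFTu2 was above 0 at each hour (0.05 at 2 h, 0.07 at 4 h and 0.05 at 6 h). Calls on listed genes, here and below, were not repeated under the alternatives or omissions. Of the list, 10 of 13 lay below 0 (45.8% of all probe sets), with a median of -0.06. Among them was eEF1alpha2, a cytosolic elongation factor, at -0.54 ± 0.177 (limma adjusted p = 0.186). GatB, an amidotransferase subunit, was at 0.10 (adjusted p = 0.360). The scaffold genes AIMP1, AIMP2 and AIMP3 were at -0.07, -0.05 and 0.04 (adjusted p = 0.461, 0.761 and 0.840).

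Genes of amino acid sensing and transport gave 1 call lower and none higher among 16 (0.437% and 0.487% of all probe sets). The gene was mnd, which encodes an amino acid transporter subunit, at -0.23 ± 0.0527 (limma adjusted p = 0.0420). The transporter gene slif was at 0.13 (adjusted p = 0.181), the initiation factor subunit eIF2Bepsilon at -0.12 (adjusted p = 0.325) and the TORC1 regulator RagC-D at -0.15 (adjusted p = 0.329). The kinase gene Gcn2 was at -0.06 (adjusted p = 0.717) and crc, the fly ATF4, at -0.05 (adjusted p = 0.716). Among 14 genes of amino acid synthesis, aay, which encodes the phosphoserine phosphatase of serine synthesis, was higher by 0.69 ± 0.0835 (adjusted p = 0.000297) and none was lower. P5cr-2 and P5cr, of proline synthesis, were at -0.33 (adjusted p = 0.0744) and -0.12 (adjusted p = 0.316), and Cth, of cysteine synthesis, at -0.10 (adjusted p = 0.364). At 4 h by itself aay was higher by 0.93 (adjusted p = 0.0226), and after stimulation it was at 0.46 (adjusted p = 0.257). Of 14 genes of tRNA maturation none passed. Their median was -0.06, with 11 below 0 (45.8% of all probe sets). The smallest p was that of Elp2, a subunit of the Elongator complex that modifies tRNA, at -0.14 (limma adjusted p = 0.120). Next came the tRNA methyltransferase gene Nsun2 at -0.12 (0.291) and Tgt, which inserts queuosine's precursor base, at -0.11 (0.325).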

How the data were processed

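Gene expression was measured on 30 arrays. Per the series' design text and the submitters' processing notes, which name affy and RMA, the authors made the deposited log2 values by background correction, quantile normalisation and summary to 1 value per probe set. Their versions: not given in the sources used here. No source states a joint normalisation of the experiments, so differences were taken within an experiment. Quantile normalisation hides a change common to most transcripts. Precision is limited by the number of arrays.

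Of 14010 probe sets, 44 controls were left out and 13966 tested; 12443 had 1 symbol, 327 several and 1196 none. Symbols were updated by gene number through the RefSeq table (12394 updated, 49 kept). Each gene entered with its brightest probe set. Groups came from sample titles. Differences were fitted with limma 3.58.1 in R 4.3.3 (lmFit, eBayes; 1 mean per group within an experiment), with Benjamini-Hochberg adjusted p over all probe sets at 0.05, in 11 comparisons. Each array holds its own pool, and p-values measure the spread between pools. The model was tested on simulated data that carried added changes.

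Members and gene lists were chosen with earlier results of these data known. Values in every array were given for members past the threshold, the next 3 by p, the largest rise and fall in each active period comparison, and their cytosolic or mitochondrial counterparts at the hours described; listed genes were named where they passed or had the smallest p, and Gcn2, crc and the AIMP genes were named after their values were seen. Further members with a single value (such as IleRS, CysRS-m and LeuRS-m) were also named after their values were seen. Alternatives were renewed normalisation, median centring, a filter on signal, the samples fitted, variance and array weights, blocks for replicate, chip lot and hybridisation run, a 3' to 5' covariate, the mean over probe sets of a gene, the study's Fs test (100 permutations, where the study's text gives 1000) and the omission of each array. The omission of run 4 was added after seeing the data. No sequences are shown.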

Additional observations from a re-analysis of the deposited data

Results flagged for a closer look

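For 6 members all 3 deprived arrays lay on one side of the sleeping mean at 4 h and on the other side at 2 or 6 h; the differences between these hours were not tested, and none of the differences within an hour passed the threshold. The share of all probe sets with this pattern was not counted, so whether 6 members is an unusual number cannot be told. Over all probe sets, 56.7% of the estimates were below 0 at 4 h, against 44.8% at 2 h and 46.1% at 6 h. ThrRS, the threonine enzyme, had -0.19 at 2 h, 0.19 at 4 h and -0.22 at 6 h. GlnRS, for glutamine, had -0.10, 0.09 and -0.12, and TyrRS, for tyrosine, -0.133, 0.052 and -0.115. The dimmer probe set of TyrRS did not have this pattern, with 0.002 at 2 h, -0.147 at 4 h and -0.029 at 6 h. HisRS, for histidine, had 0.051 at 4 h and -0.187 at 6 h, and IleRS, for isoleucine, 0.077 and -0.329. SerRS-m, for mitochondrial serine tRNA, had -0.15 at 2 h and 0.07 at 4 h.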

How the results depend on the processing

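The count of members called in the mean over 2, 4 and 6 h was 2, and 0 with hybridisation run as a block or without run 4. Array weights gave 5 in the mean (adding AsnRS, AsnRS-m and LeuRS-m). They also called 550 probe sets higher and 607 lower there, against 68 and 61. In the F test they gave 9 members, where 1549 of 13966 probe sets were called with a mean above 0 and 1546 below. By hour they gave 2 at 2 h (225 probe sets higher and 204 lower), 3 at 4 h (981 and 968) and 2 at 6 h (195 and 252). In the trends it was 2 in sleeping flies (407 and 390) and 4 in deprived flies (776 and 861). All 30 arrays in 1 fit called GlyRS in the F test (45 probe sets higher and 40 lower). That fit also called AsnRS in the deprived trend (28 and 65), 1 member each, and 90 probe sets higher and 116 lower in the mean. The 3' to 5' covariate called AsnRS in the deprived trend (1 member, 19 probe sets higher and 46 lower). In the mean the run block called 31 probe sets higher and 41 lower, and the Fs test 101 and 95. Omission of single arrays gave 0 to 3 members in the mean, 0 to 1 in the F test and 0 to 1 in the deprived trend. The estimate of LysRS lay between -0.30 and -0.24 over 14 alternatives (12 past the threshold) and between -0.28 and -0.23 over 18 omissions (14), and that of GlyRS between -0.27 and -0.18 (12) and between -0.26 and -0.20 (10). With a replicate block LysRS was -0.26 (adjusted p = 0.0355) and GlyRS -0.23 (adjusted p = 0.0496). The 15 correlations between same-numbered arrays ran from -0.38 to 0.439, and 5 were above 0.1. The highest were those of deprived and sleeping replicates 2 and 3 at 2 h (0.439 and 0.408). They cannot settle whether the numbers pair the samples, which were treated as unpaired in the main fit. No called value changed direction. Medians of the members that lay near 0 did change sign: that at 4 h (0.001; -0.026 to 0.017 over the alternatives and omissions), that of stimulated minus wake flies (-0.014; -0.031 to 0.002 over the alternatives and omissions), that of the sleeping trend (0.002; -0.014 to 0.073 over the alternatives and omissions) and that of the deprivation minus the stimulation effect (0.031; -0.017 to 0.038 over the alternatives and omissions). Scan day was not run as a block, since within the deprivation experiment 1 array alone (ZT14 replicate 3) was scanned on another day. All 9 active period arrays were scanned on a day of their own, so scan day and experiment cannot be told apart. No run was known for the active period arrays. With 3 arrays a group, small differences of dim probe sets could not be resolved.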
